A study of Homo sapiens with 18 samples.

Results

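LNCaP cells, a human prostate adenocarcinoma line that grows with androgen signalling and carries luminal features, were exposed for 72 h to 2-77 at 1 µM or to DMSO, the vehicle, and their messenger RNA was sequenced. The comparison uses the 3 samples of 2-77 and the 3 samples of DMSO, 6 of the 18 samples of the series, and all 20145 genes of the deposited table. The other samples, 3 each, received ENZA (enzalutamide, an antiandrogen, 10 µM), ACBI (0.2 µM), BD98 (2 µM) or P-16 (10 µM) for the same time. All 6 groups were grown in RPMI medium with fetal bovine serum and antibiotics, and the labels name no genetic change. The name 2-77 is a code. The series concerns inhibitors of the bromodomain of BRD7 and their activity in prostate cancer, but the labels give no target for any of the compounds. They do not say whether replicates were separate cultures, so each p measures the spread between these samples, which may be technical. The data cover 1 cell line, 1 dose and 1 time.

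BRD7 belongs to PBAF, a form of the BAF (SWI/SNF) chromatin remodelling complex that slides and evicts nucleosomes, and its bromodomain reads acetylated lysine on histones. In luminal prostate cells androgen signalling drives secretion, glycoprotein synthesis and amino acid and lipid metabolism along with its classic secreted products. Hypoxia-inducible factors bind a short DNA element around the core ACGTG and raise the genes of glycolysis, of collagen modification and of the oxygen response.

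The 2 lists of genes with the largest share called higher after 2-77, glycolysis enzymes and other known targets of hypoxia-inducible factors, were examined for that core, as were the other lists. Both strands of the 250 bases before each start in RefSeq's promoter table (GRCh38.p14) were searched for ACGTG, read as CACGT on the other strand. The palindrome CACGTG counts as 2 overlapping matches. A match was found in 64.3% of 28 promoters of hypoxia-inducible factor targets outside glycolysis (22 of 27 genes tested have an entry) and in 36.7% of 49 promoters of glycolysis enzymes (23 of 24 genes). Some genes have several promoters. By gene, 68.2% of those 22 and 65.2% of those 23 held a match in at least 1 promoter. Of all 35116 promoters in the table, 18.5% held it, and among genes tested 22.1% of 16871 did (28.3% by gene). The first list holds known targets of factors that bind this core, so a high share can follow from how it was made. The core was also in 55.1% of 69 promoters of secretory transport genes (53.8% by gene), of which none was called higher. The share was 24.8% for promoters of all genes called lower and 20.4% for all genes called higher (31.5% and 27.6% by gene). Whether the core goes with direction was not tested. Lists with few calls varied. HOX genes held it in 46.7% of 15 promoters (8 of 22 genes tested have an entry). Nuclear-encoded respiratory chain subunits held it in 22.9% of 70 and proteasome subunits in 12.5% of 32. The promoters of 5 such genes follow, 5′ to 3′ on the gene's strand with matches in capitals, each shortened to the part that no annotated exon covers. They show how short the shared element is and that its distance from the start differs between genes. The last sequence, of the androgen-driven protease KLK3, is shown for contrast: its capitals mark AGAACA, the reverse complement of TGTTCT, a core of the androgen response element.
INSIG2: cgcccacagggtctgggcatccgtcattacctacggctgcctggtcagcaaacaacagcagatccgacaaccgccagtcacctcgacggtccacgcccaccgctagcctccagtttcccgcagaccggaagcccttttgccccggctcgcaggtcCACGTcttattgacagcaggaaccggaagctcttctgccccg
BNIP3: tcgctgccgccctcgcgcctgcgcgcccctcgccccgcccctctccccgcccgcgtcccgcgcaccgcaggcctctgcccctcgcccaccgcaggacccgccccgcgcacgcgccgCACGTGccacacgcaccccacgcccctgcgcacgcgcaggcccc
FAM162A: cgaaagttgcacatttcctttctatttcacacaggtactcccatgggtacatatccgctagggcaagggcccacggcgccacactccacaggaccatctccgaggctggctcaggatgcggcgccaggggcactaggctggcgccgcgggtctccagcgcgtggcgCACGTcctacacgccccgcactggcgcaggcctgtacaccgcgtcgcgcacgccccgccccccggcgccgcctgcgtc
PGK1: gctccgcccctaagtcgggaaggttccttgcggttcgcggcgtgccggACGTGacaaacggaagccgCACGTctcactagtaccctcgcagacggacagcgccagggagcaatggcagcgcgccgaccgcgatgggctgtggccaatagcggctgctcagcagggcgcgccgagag
LDHA: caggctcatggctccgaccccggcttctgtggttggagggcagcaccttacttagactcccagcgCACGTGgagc
KLK3: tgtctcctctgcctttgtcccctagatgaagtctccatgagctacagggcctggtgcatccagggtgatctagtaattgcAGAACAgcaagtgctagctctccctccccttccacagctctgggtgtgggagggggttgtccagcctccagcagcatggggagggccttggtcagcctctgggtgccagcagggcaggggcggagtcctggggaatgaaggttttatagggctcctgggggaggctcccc
INSIG2 spans chr2:118088221-118088417 (plus strand) with its match 95 bases before the start, and BNIP3 chr10:131982014-131982173 (minus strand) with the first of its overlapping matches 134 bases before. FAM162A, at chr3:122383932-122384175 (plus strand), has 1 match at 84 bases. PGK1, at chrX:78103998-78104173 (plus strand), has matches 202 and 183 bases before the start. In LDHA, at chr11:18394313-18394387 (plus strand), the first match lies 185 bases before the start, and in KLK3, at chr19:50854665-50854914 (plus strand), it lies 170 bases before. TGTTCT was in 17.9% of 28 promoters of prostate surface antigens and secreted marks and in 12.4% of all promoters (8.34% among genes tested). These matches describe the sequence and are no measure of binding.

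The libraries carried the profile of the line. Of 10 luminal markers 9 were tested, and their summed level was 3738 to 3840 CPM (counts scaled to the size of the library) after 2-77 and 7883 to 7969 CPM in DMSO. KLK3, which androgen induces, fell 5.80-fold (adjusted p = 9.35e-31), whereas HOXB13, a homeobox factor of prostate, was not called (adjusted p = 0.670). GATA3 had 0 counts in all 6 libraries. In bulk RNA, fewer cells of a type and less RNA per cell cannot be told apart. Epithelial EPCAM, at 94.2, 97.5 and 101 CPM after 2-77 and 104, 98.1 and 96.7 CPM in DMSO, overlapped between the groups (chosen after its values were seen). PTPRC, which marks leukocytes, had 0 counts in all 6 libraries, as had KDR of endothelium, and PECAM1 of endothelium had 1 count. The list of 12 immune and endothelial markers summed to 11.2 to 12.8 CPM after 2-77 and 27.8 to 29.3 CPM in DMSO. Its 3 tested members were called, 1 higher and 2 lower. VWF, an endothelial clotting factor chosen here after its values were seen, held most of that sum and fell 3.52-fold (adjusted p = 5.39e-16), from 23.0, 20.9 and 21.8 CPM to 6.71, 6.13 and 5.73 CPM. The higher call was lost without 2-77 replicate 2, DMSO replicate 1 or DMSO replicate 2, and leaving out any 1 of the 6 samples left 1 lower call. The neuroendocrine list summed to 447 to 487 CPM after 2-77 and 445 to 483 CPM in DMSO, and CHGA had 2 counts over the 6 libraries. Of its 8 tested members 3 rose, ENO2 among them, and 1 fell. Totals ran from 17210743 to 30626332 counts per library. The first principal component of the 6 libraries held 73.9% of the variance and separated the groups. The second held 8.83% and set 2-77 replicate 3 apart, in which ribosomal RNA took 2.09% of counts against 0.650% to 1.62% in the other 5.

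Messenger RNA of BRD7 itself did not pass the test. Its level was 63.0, 61.1 and 61.5 CPM after 2-77 and 58.1, 59.8 and 54.1 CPM in DMSO, a log2 fold change of 0.11 ± 0.0615 (SE, adjusted p = 0.152, 95% interval -0.02 to 0.25). All 3 treated values lay above all 3 controls, by little. Of the other PBAF subunits, ARID2, the DNA-binding subunit, rose from 77.4, 78.4 and 78.1 to 87.8, 91.4 and 89.1 CPM (1.15-fold, adjusted p = 1.34e-04). PHF10 rose 1.15-fold (adjusted p = 0.0123) and PBRM1, with its array of bromodomains, fell 1.11-fold (adjusted p = 0.00469). The call of PHF10 was lost without DMSO replicate 1 (adjusted p = 0.0802, range over alternatives 0.00476 to 0.0802) and that of PBRM1 without DMSO replicate 2 (0.0566, range 0.00130 to 0.0566). Among 23 BAF and ncBAF subunits tested, 5 rose and 2 fell, against 20.5% of all genes tested called higher and 20.2% called lower. Those called lower numbered 1 without 2-77 replicate 1, DMSO replicate 2 or DMSO replicate 3. SMARCD3, a subunit that varies between tissues, had the largest change of the list: 39.0, 38.3 and 34.5 CPM after 2-77 and 16.3, 16.84 and 17.8 CPM in DMSO, 2.19-fold higher (adjusted p = 1.73e-13). BRD9, the bromodomain subunit of ncBAF, rose 1.23-fold (adjusted p = 1.18e-04).

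The response was wide and mostly shallow. Of 15422 genes tested, 40.7% were called, 20.5% higher and 20.2% lower, and the median log2 fold change over all genes was 0.00. Of the genes called higher 2256 differed by less than 1.5-fold, and of those called lower 2401. A change of more than 1.5-fold was called for 4.10% of genes. For 6003 of the 6280 called genes the 3 treated values lay wholly outside the 3 controls. The same held for 1790 of the 9142 genes not called. Most genes named below were taken from those without overlap, so their separation follows from that choice. Genes called higher had a longer median span in the genome (41.2 kb) than those called lower (24.5 kb) or not called (24.3 kb). Genes called lower had the higher median level in DMSO, 47.8 CPM against 27.8 CPM for those called higher and 17.4 CPM for those not called. Among genes called with at least a 2-fold change, the median levels in DMSO were 2.92 CPM (lower) and 0.808 CPM (higher). Their median spans were 34.0 kb and 38.4 kb. Of the 716 genes called with at least a 2-fold change, 582 stood on none of the 52 gene lists used here.

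**Figure D1:**
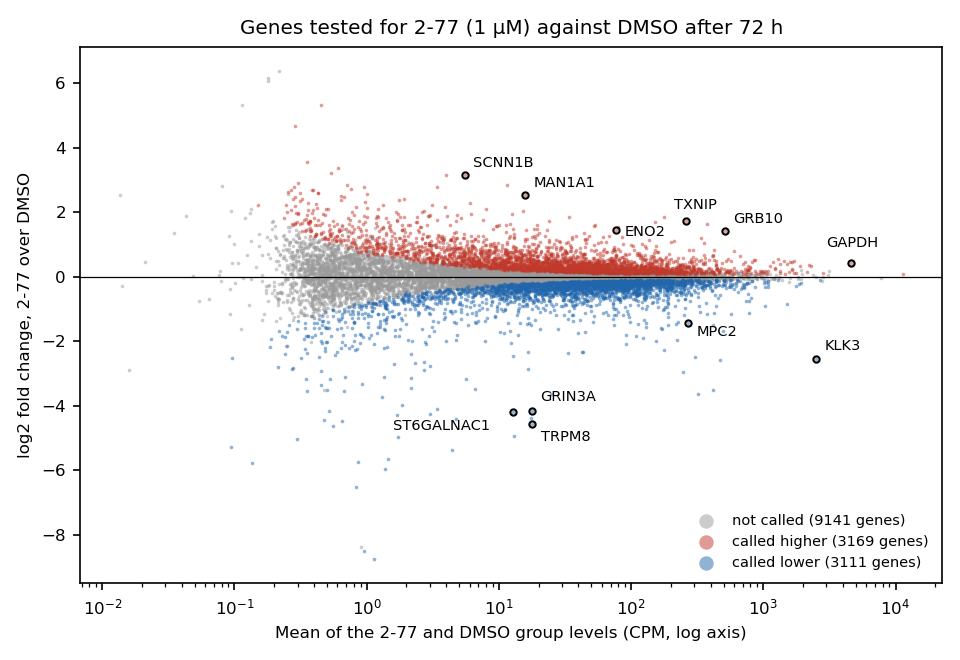
Log2 fold change of 2-77 over DMSO for each gene tested (y axis) against the mean of the group levels (CPM, log x axis), with genes called higher in red, called lower in blue and not called in grey. Most called genes lie within 1 log2 unit of 0, and the secreted protease KLK3 and the abundant glycolytic enzyme GAPDH move in opposite directions. A gene at 0 in both groups is not drawn.

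Gene lists separated by direction. At the higher end stood glycolysis and hypoxia-inducible factor targets. At the lower end stood serine and one-carbon enzymes, aminoacyl-tRNA synthetases, secretory transport, amino acid transporters and prostate surface antigens. Of 28 prostate surface antigens and secreted marks tested, 17 fell and 4 rose (median log2 fold change -0.98). This count and the list counts against DMSO given below stand beside 20.5% of all genes tested called higher and 20.2% called lower.

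**Figure D2:**
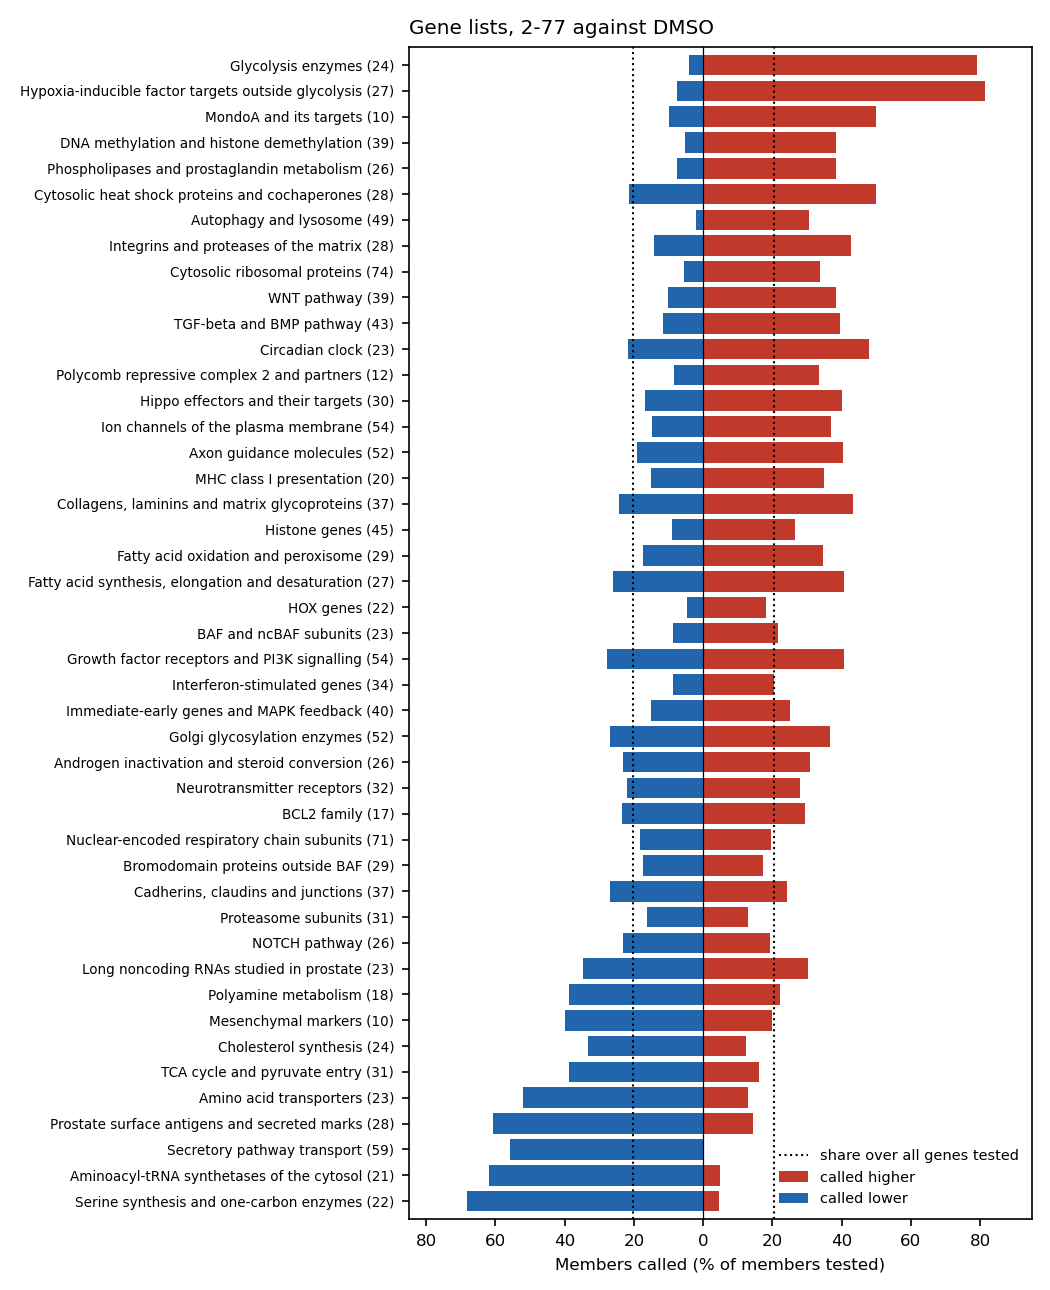
Share of the tested members of each gene list (number in parentheses) called higher (red, to the right) or lower (blue, to the left) after 2-77, in percent, with dotted lines at 20.5% higher and 20.2% lower over all genes tested. All lists with at least 10 members tested but 1 are drawn; the top 2 bars extend past 75% to the right and secretory transport has no bar on that side.

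Genes of the glycolytic pathway rose together. All 24 on the list were tested: 19 rose and 1 fell, with a median log2 fold change of 0.35. ENO2, an enolase also used as a neuroendocrine marker, rose from 40.7, 41.8 and 39.8 CPM in DMSO to 114, 112 and 112 CPM after 2-77 (2.76-fold, log2 fold change 1.47 ± 0.0513, adjusted p = 6.23e-20). The groups were far apart. GAPDH, which oxidises glyceraldehyde 3-phosphate, had 5311, 5335 and 5116 CPM after 2-77 and 3987, 3835 and 3994 CPM in DMSO (1.33-fold higher, adjusted p = 7.89e-11). LDHA, the lactate dehydrogenase subunit that favours lactate, had 1916, 1898 and 1895 and 1385, 1365 and 1359 CPM (1.39-fold higher, adjusted p = 2.48e-13). For both enzymes every treated library exceeded every control, as required for naming them, in differences of less than 1.5-fold. ALDOA (aldolase) rose 1.41-fold and PFKP, a phosphofructokinase, 1.47-fold (adjusted p = 2.47e-11 and 8.30e-13). The exceptions were chosen after their values were seen: HK2, a hexokinase, was the member that fell, by 0.18 on the log2 scale (without DMSO replicate 3, 2 members were called lower), and the glucose transporter SLC2A1 (log2 fold change 0.07, adjusted p = 0.298) and LDHB (0.00, adjusted p = 0.979) were not called.

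Targets of hypoxia-inducible factors outside glycolysis showed the same direction. Of 29 on the list 27 were tested: 22 rose and 2 fell, with a median log2 fold change of 0.49. PLOD2, a lysyl hydroxylase that prepares collagen for crosslinking (chr3:146069441-146161495), was at 21.01, 21.8 and 20.9 CPM in DMSO and 45.9, 50.5 and 53.1 CPM after 2-77 (2.34-fold higher, adjusted p = 2.88e-13). INSIG2, which holds the sterol sensor complex in the endoplasmic reticulum, was at 29.9, 29.9 and 25.8 CPM and 64.1, 58.3 and 68.7 CPM (2.24-fold higher, adjusted p = 3.42e-13). P4HA2, a collagen prolyl hydroxylase subunit, had 15.4, 17.4 and 16.5 CPM and 30.1, 31.0 and 32.6 CPM (1.89-fold higher, adjusted p = 5.26e-12). Separate groups were a condition for naming these 3 genes, and each replicate of 2-77 lay far above the highest control. The histone demethylase KDM3A rose 1.49-fold and the transcription factor BHLHE40 1.43-fold (adjusted p = 1.86e-11 and 7.22e-10). Of the genes printed for their promoters, BNIP3, a mitophagy receptor, was at 609, 596 and 612 CPM after 2-77 and 441, 432 and 423 CPM in DMSO (1.40-fold higher, adjusted p = 1.99e-10). FAM162A, a mitochondrial protein, was at 173, 183 and 173 and 143, 139.5 and 134 CPM (1.27-fold higher, adjusted p = 5.77e-07). The angiogenic factor VEGFA rose 1.36-fold (adjusted p = 2.06e-10). These 3 genes were chosen after their values were seen, as were the members that fell, LOX (log2 fold change -1.62, adjusted p = 1.52e-04) and DDIT4 (-0.22, adjusted p = 3.17e-06). With a filter of at least 50 counts in at least 3 samples, 1 member of the list was called lower.

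**Figure D3:**
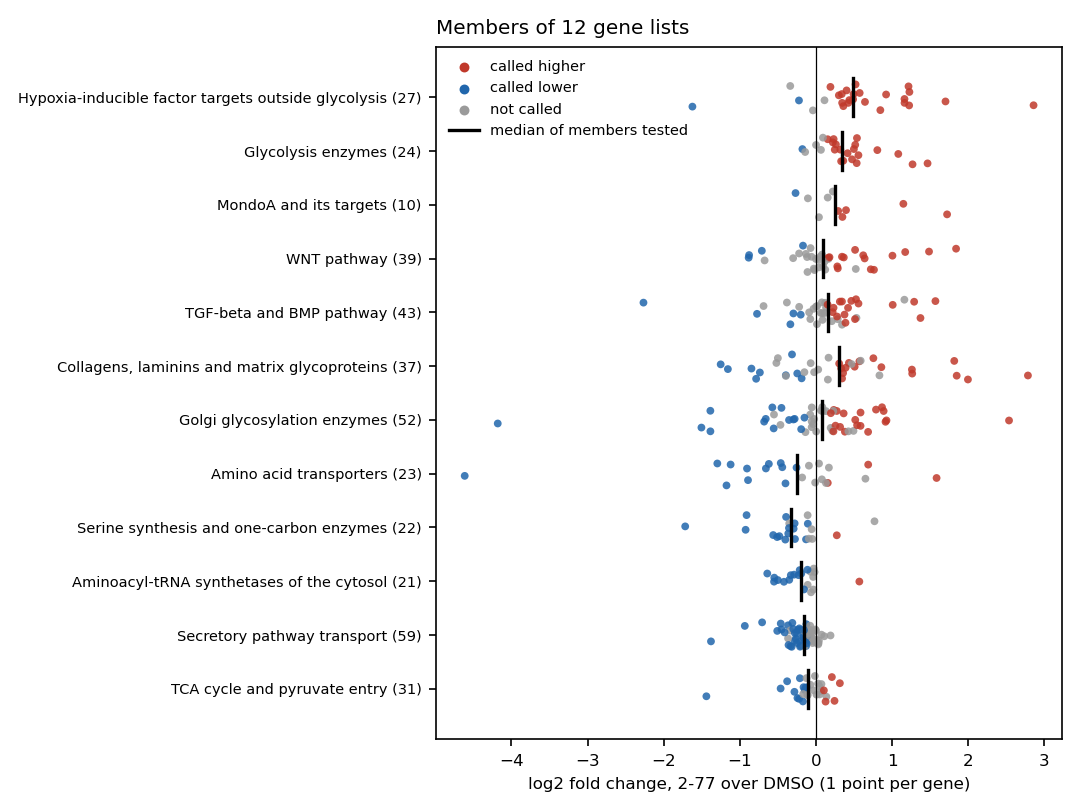
Log2 fold change of 2-77 over DMSO (x axis) for each tested member of 12 gene lists, 1 point per gene, coloured red where called higher, blue where called lower and grey where not called, with a black bar at the list's median. Medians run from 0.49 for the hypoxia-inducible factor targets to -0.32 for serine and one-carbon enzymes, and single members lie far outside their list.

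Transcripts for pyruvate transport and of glucose-responsive genes were also among the calls. MPC2, a subunit of the mitochondrial pyruvate carrier (chr1:167916675-167937072), fell from 393, 384 and 405 CPM in DMSO to 146, 143 and 147 CPM after 2-77 (2.71-fold, adjusted p = 5.53e-22). Among 31 genes of the TCA cycle and pyruvate entry 5 rose and 12 fell (median -0.11), with cytosolic IDH1 1.38-fold lower (adjusted p = 3.65e-12). TXNIP, an arrestin-family protein that restrains glucose uptake (chr1:145992442-145996579), rose from 126, 119 and 118 CPM to 399, 398 and 401 CPM (3.30-fold, log2 fold change 1.72 ± 0.0362, adjusted p = 2.16e-25). Its relative ARRDC4 rose from 14.6, 14.9 and 15.2 CPM to 30.6, 33.1 and 35.6 CPM (2.22-fold, adjusted p = 2.60e-13). Neither gene's groups overlapped, which naming from a list required, and the TXNIP replicates lay within a few CPM of each other. Both are known targets of MondoA, a glucose-responsive transcription factor. Of 10 genes on that list 5 rose and 1 fell, the latter being MLX, its partner.

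Genes for amino acid supply and charging fell. Among 22 serine synthesis and one-carbon enzymes 15 fell and 1 rose (median log2 fold change -0.32). MTHFD2, a mitochondrial folate enzyme, was at 244, 255 and 238 CPM in DMSO and 127, 131 and 131 CPM after 2-77 (1.90-fold lower, adjusted p = 2.65e-17). PSAT1, the aminotransferase of serine synthesis, was at 575, 566 and 554 and 377, 379.8 and 391.8 CPM (1.48-fold lower, adjusted p = 1.17e-12). GNMT, which methylates glycine, was at 16.6, 15.1 and 15.6 and 4.64, 5.05 and 4.67 CPM (3.29-fold lower, adjusted p = 6.35e-14). In each, all treated libraries lay below all controls, a condition for naming these genes. Of 21 cytosolic aminoacyl-tRNA synthetases, which load amino acids onto tRNA, 13 fell and 1 rose (median -0.19). GARS1, for glycine, was at 336, 331 and 339 CPM in DMSO and 235, 228 and 226 CPM after 2-77 (1.46-fold lower, adjusted p = 3.52e-13). WARS1, for tryptophan, fell 1.56-fold and SARS1, for serine, 1.41-fold (adjusted p = 6.18e-14 and 3.67e-13). Both sets of synthetase values were tight, and their separation was required for naming the genes. TGATGNAA, a core of the element that ATF4 binds (TTNCATCA on the other strand), was in 14.3% of 21 promoters of synthetases (3 promoters). It was in 6.67% of 30 promoters of serine and one-carbon enzymes (2 promoters, both of MTHFD1L). For amino acid transporters the share was 5.26% of 38 (2 promoters). Hippo effectors and targets, of which more rose than fell, held it in 8.82% of 34. The share was 3.14% of all promoters and 1.74% among genes tested.

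Amino acid transporters fell more often than they rose: of 23 tested, 12 fell and 3 rose (median -0.25). SLC1A5, the glutamine transporter, was at 271, 273 and 293 CPM in DMSO and 147, 153 and 148 CPM after 2-77 (1.87-fold lower, adjusted p = 1.56e-17). SLC43A1, a carrier of branched-chain amino acids, was at 108, 101 and 105 and 43.6, 44.4 and 39.7 CPM (2.45-fold lower, adjusted p = 4.26e-17). The cationic amino acid transporter SLC7A1 fell 1.54-fold (adjusted p = 7.25e-15). Against this direction, SLC6A6, which imports taurine, rose from 5.76, 4.55 and 4.15 CPM to 14.7, 12.997 and 15.2 CPM (3.00-fold, adjusted p = 1.01e-12). No group of these 4 genes overlapped its counterpart, as the choice of genes required.

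Many genes for carrying proteins from the endoplasmic reticulum to the Golgi fell, most of them by less than 1.5-fold. Of 59 secretory transport genes tested 33 fell and 0 rose (median -0.15). Without DMSO replicate 1, 1 was called higher. CREB3L4 is a transcription factor abundant in prostate rather than a transport protein, and it fell more than most of these genes. It was at 95.9, 92.7 and 100.02 CPM in DMSO and 50.4, 50.9 and 49.8 CPM after 2-77 (1.91-fold lower, adjusted p = 1.50e-15). SEC24D, a coat component that picks cargo, fell 1.42-fold, and COPB1, of the coat that returns vesicles, fell 1.29-fold (adjusted p = 9.27e-09 and 5.49e-09). Among 52 Golgi glycosylation enzymes both directions were frequent: 19 rose and 14 fell (63.5% called, against 40.7% of all genes tested). ST6GALNAC1, which makes the sialyl-Tn antigen, fell from 24.5, 24.2 and 24.5 CPM to 1.102, 1.64 and 1.34 CPM (18.1-fold, adjusted p = 7.71e-20). UAP1, which makes the UDP-GlcNAc used for glycans, fell from 334, 332 and 324 CPM to 125, 124 and 129 CPM (2.61-fold, adjusted p = 3.44e-23). MAN1A1, a mannosidase that trims N-glycans, rose from 5.70, 4.70 and 3.70 CPM to 24.9, 28.2 and 27.95 CPM (5.80-fold, adjusted p = 2.96e-15). The list thus held large changes of opposite sign, with GALNT7 2.84-fold lower and GALNT10 1.85-fold higher among the enzymes that start mucin-type O-glycans (adjusted p = 3.31e-18 and 2.88e-17).

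Ion channels of the plasma membrane included some of the largest changes. Of 54 tested, 20 rose and 8 fell (51.9% called, against 40.7% of all genes tested). TRPM8, the cold- and menthol-gated cation channel of prostate epithelium (chr2:233917373-234019522), fell from 31.9, 34.7 and 36.2 CPM in DMSO to 1.39, 1.77 and 1.22 CPM after 2-77 (23.6-fold, log2 fold change -4.56 ± 0.115, adjusted p = 2.09e-23). KCNN2, a small-conductance calcium-activated potassium channel (chr5:114055978-114496500), fell from 242, 244 and 253 CPM to 65.6, 61.5 and 60.2 CPM (3.95-fold, adjusted p = 1.79e-25). The large-conductance channel KCNMA1 fell 2.27-fold (adjusted p = 2.20e-18). Subunits of the epithelial sodium channel went the other way. SCNN1B, its beta subunit (chr16:23302302-23381294), rose from 1.34, 0.961 and 1.07 CPM to 9.92, 10.6 and 9.43 CPM (8.93-fold, log2 fold change 3.16 ± 0.178, adjusted p = 7.16e-15). SCNN1G, the gamma subunit that neighbours it on chromosome 16, rose from 6.11, 5.82 and 6.64 CPM to 16.1, 17.1 and 16.2 CPM (2.65-fold, adjusted p = 6.26e-11). The alpha subunit SCNN1A, added after its values were seen, overlapped between groups at 144, 143 and 143 CPM after 2-77 and 143, 139.8 and 145 CPM in DMSO (adjusted p = 0.930). ATP1B1, the beta subunit of the sodium-potassium pump, rose from 79.0, 73.3 and 76.5 CPM to 279, 264 and 292 CPM (3.65-fold, adjusted p = 2.03e-23). Among 32 neurotransmitter receptors 9 rose and 7 fell (50% called, against 40.7% of all genes tested). GRIN3A, a subunit of the NMDA glutamate receptor, fell from 34.9, 32.8 and 33.1 CPM to 1.49, 2.07 and 2.15 CPM (17.9-fold, adjusted p = 1.19e-23).

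**Figure D4:**
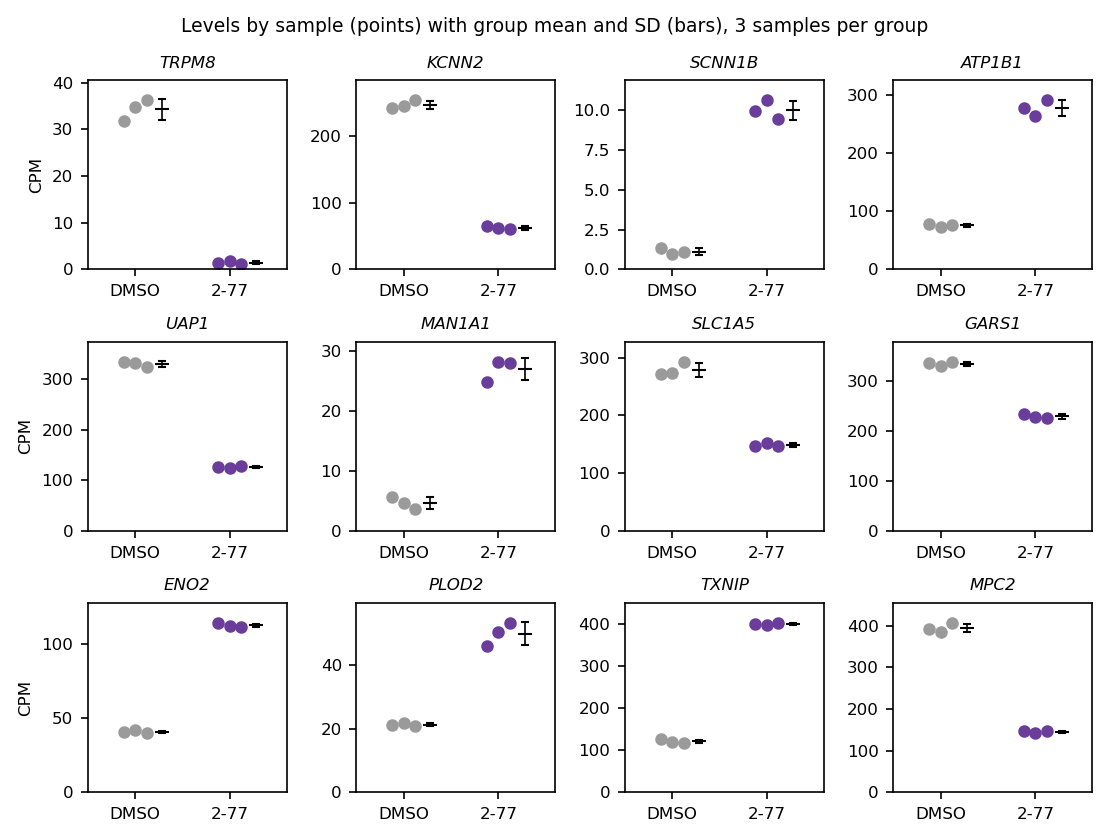
Level in CPM (y axis, from 0) of 12 genes in each of the 3 DMSO samples (grey) and 3 samples of 2-77 (purple), with the group mean and SD as a bar beside the points. The groups are separate in all 12 panels because the genes were chosen from those without overlap. TRPM8, KCNN2, UAP1, SLC1A5, GARS1 and MPC2 are lower after 2-77, and SCNN1B, ATP1B1, MAN1A1, ENO2, PLOD2 and TXNIP are higher.

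Genes that make and remove lipid mediators changed at both ends. Of 26 phospholipases and prostaglandin genes 10 rose and 2 fell (46.2% called, against 40.7% of all genes tested). HPGD, which inactivates prostaglandins, fell from 9.72, 9.20 and 8.20 CPM in DMSO to 0.389, 0.432 and 0.447 CPM after 2-77 (21.2-fold, adjusted p = 1.70e-17), and the prostaglandin E2 receptor PTGER4 fell from 6.81, 6.93 and 5.26 CPM to 1.49, 1.77 and 1.46 CPM (4.01-fold, adjusted p = 1.96e-10). PLD1, which releases phosphatidic acid, rose from 1.11, 0.759 and 0.579 CPM to 6.78, 7.38 and 7.35 CPM (8.95-fold, adjusted p = 3.18e-13). The phospholipases PLA2G4D and PLA2G2A rose 4.32-fold and 3.08-fold (adjusted p = 1.57e-13 and 8.41e-14). Each of these 5 genes was separate between groups, as the choice of genes required. Of 24 cholesterol synthesis genes 8 fell and 3 rose (median -0.07), against 20.2% and 20.5% of all genes. ABCA1, the cholesterol exporter, rose from 1.63, 2.12 and 1.47 CPM to 6.26, 6.56 and 6.34 CPM (3.67-fold, adjusted p = 4.26e-10).

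Matrix and guidance genes were called higher more often than lower. Of 37 collagens, laminins and matrix glycoproteins 16 rose and 9 fell (median 0.31). COL5A1, a fibrillar collagen chain, rose from 0.349, 1.01 and 1.16 CPM in DMSO to 6.48, 6.74 and 4.79 CPM after 2-77 (6.89-fold, adjusted p = 5.56e-10), and its partner chain COL5A2 rose 2.40-fold (adjusted p = 2.55e-11). LAMB1, a laminin chain of basement membranes, rose from 3.84, 3.69 and 3.34 CPM to 9.63, 8.12 and 8.17 CPM (2.40-fold, adjusted p = 1.07e-08). Fibronectin (FN1) went the other way, from 960.4, 979 and 979 CPM to 589, 580.5 and 583 CPM (1.67-fold lower, adjusted p = 5.87e-17). The mesenchymal marker list, of which FN1 is a member, summed to 651 to 659.7 CPM after 2-77 and 1027 to 1051 CPM in DMSO. Of its 15 genes 10 were tested, 2 rose and 4 fell. With a filter of at least 50 counts in at least 3 samples, 2 were called lower. VIM, an intermediate filament protein on the same list, rose from 14.1, 13.2 and 11.9 CPM to 27.5, 29.5 and 26.5 CPM (2.13-fold, adjusted p = 3.69e-12). The mesenchymal transcription factors TWIST1 and SNAI2 fell 2.83-fold and 11.6-fold (adjusted p = 6.07e-14 and 5.88e-07; chosen after their values were seen). The part of these markers in the matrix result was not tested. Among 52 axon guidance molecules 21 rose and 10 fell. SEMA6A rose from 29.1, 27.7 and 27.5 CPM to 62.7, 61.8 and 61.4 CPM (2.21-fold, adjusted p = 1.33e-16), whereas the secreted semaphorin SEMA3C fell from 97.7, 108 and 101 CPM to 50.8, 47.8 and 55.9 CPM (1.98-fold, adjusted p = 3.92e-12).

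Developmental pathways differed in how many members were called, and the NOTCH list, with 5 of 26 higher and 6 lower, was near the shares over all genes. In the WNT pathway 15 of 39 genes rose and 4 fell: the ligand WNT5A rose from 4.598, 4.25 and 5.35 CPM in DMSO to 13.2, 15.1 and 11.8 CPM after 2-77 (2.80-fold, adjusted p = 2.44e-11). The receptor FZD5 fell 1.64-fold, the receptor-removing ligase RNF43 rose 1.65-fold and the transcription factor LEF1 rose 2.25-fold (adjusted p = 1.56e-10, 2.84e-09 and 4.87e-06). In the TGF-beta and BMP pathway 17 of 43 genes rose and 5 fell. PMEPA1, an inhibitor of SMAD signalling that androgen also induces, fell from 296, 292 and 289.8 CPM to 61.7, 60.9 and 59.97 CPM (4.81-fold, adjusted p = 2.54e-28). ID3, a BMP target that blocks basic helix-loop-helix factors, rose from 5.06, 4.75 and 4.72 CPM to 14.98, 15.1 and 13.002 CPM (2.97-fold, adjusted p = 1.03e-12), and ID1 rose 2.45-fold (adjusted p = 3.54e-07). The receptor BMPR1B fell 1.71-fold (adjusted p = 5.76e-09). Among 30 Hippo effectors and targets 12 rose and 5 fell (median 0.19). WWTR1 (TAZ), one of the effectors, fell from 6.69, 5.36 and 5.21 CPM to 0.259, 0.302 and 0.325 CPM (19.3-fold, adjusted p = 4.31e-14), at low levels in both groups.

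In growth factor receptor and PI3K signalling 22 of 54 genes rose and 15 fell (68.5% called, against 40.7% of all genes tested). GRB10, an adaptor that dampens insulin and IGF signalling, rose from 279.8, 281 and 278 CPM in DMSO to 750.1, 741 and 742 CPM after 2-77 (2.66-fold, log2 fold change 1.41 ± 0.0359, adjusted p = 2.28e-23). The receptor IGF1R fell from 71.2, 74.3 and 73.5 CPM to 32.1, 31.1 and 32.1 CPM (2.30-fold, adjusted p = 1.94e-16). INPP4B, a phosphatase that opposes PI3K, fell from 20.4, 21.4 and 18.3 CPM to 5.03, 3.89 and 5.57 CPM (4.13-fold, adjusted p = 1.77e-14). All 3 genes were separate between the groups, a condition for naming them. PIK3R3, a regulatory subunit of PI3K, rose 1.76-fold and the stress sensor SESN1 1.66-fold (adjusted p = 4.04e-18 and 1.43e-14). In the BCL2 family 5 of 17 genes rose and 4 fell, near the shares over all genes, and those called higher numbered 3 without 2-77 replicate 2. The survival protein MCL1 rose from 325, 322 and 316 CPM to 501, 509 and 536 CPM (1.61-fold, adjusted p = 2.99e-14), and the death-promoting BMF rose from 16.5, 18.5 and 18.8 CPM to 37.3, 40.7 and 39.8 CPM (2.18-fold, adjusted p = 2.13e-14).

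Chromatin enzymes were called higher more often than lower among the DNA methylation and histone demethylation genes, with 15 of 39 rising and 2 falling. KDM5A, a demethylase of H3K4, was at 52.7, 52.3 and 52.7 CPM in DMSO and 93.4, 94.4 and 92.0 CPM after 2-77 (1.77-fold higher, adjusted p = 3.38e-15). KDM6A, a demethylase of H3K27, was at 276, 271 and 277.1 and 441, 443 and 438 CPM (1.604-fold higher, adjusted p = 3.21e-16). The H3K27 methyltransferase EZH2 was lower, at 39.8, 36.7 and 35.8 and 26.5, 24.0 and 25.5 CPM (1.47-fold, adjusted p = 8.83e-07). The groups of all 3 were separate, as required for naming them. EZH2 was the member that fell among 12 genes of Polycomb repressive complex 2 and partners, of which 4 rose (median 0.14). Of these 12 genes 41.7% were called, near the 40.7% of all genes tested. Among 49 autophagy and lysosome genes 15 rose and 1 fell, in changes of less than 1.5-fold, and 2 were called lower without 2-77 replicate 2, 2-77 replicate 3 or DMSO replicate 1. In MHC class I presentation 7 of 20 genes rose and 3 fell (50% called, against 40.7% of all genes tested). B2M, the invariant light chain, fell 1.35-fold (adjusted p = 3.00e-10).

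Several lists were called no more often in either direction than all genes, or nearly so. Of 31 proteasome subunits 4 rose and 5 fell, of 71 nuclear-encoded respiratory chain subunits 14 and 13, and of 29 bromodomain proteins outside BAF 5 and 5. Interferon-stimulated genes gave 7 and 3 of 34, and HOX genes 4 and 1 of 22. Some of these counts moved with single libraries. Respiratory chain subunits called lower numbered 6 without 2-77 replicate 3 or DMSO replicate 3 and 8 without DMSO replicate 1. Those called higher numbered 9 without 2-77 replicate 2, DMSO replicate 2 or DMSO replicate 3. Bromodomain proteins called higher numbered 2 without 2-77 replicate 1 and 3 without DMSO replicate 1, and those called lower 3 without 2-77 replicate 2 or DMSO replicate 2. Proteasome subunits called lower numbered 3 without DMSO replicate 1, and HOX genes 2.

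Some called genes lay side by side. Runs of at least 7 neighbouring tested genes called in 1 direction were found at 8 places. One held the kallikreins on chr19:50797693-50910738, with 7 genes lower from C19orf48 to KLK4 and log2 fold changes of -3.64 to -0.98. Another, on chr16:80597907-81096395, held 7 genes lower from CDYL2 to GCSH. In it CENPN, a centromere protein gene, fell from 502, 508 and 531 CPM in DMSO to 90.0, 95.9 and 89.6 CPM after 2-77 (5.598-fold, adjusted p = 9.10e-29), and ARLNC1, an androgen-regulated noncoding RNA, fell 7.33-fold (adjusted p = 1.84e-12). Whether the deposited counts used strand is not given in the sources used here, so reads of overlapping neighbours cannot be told apart. Another pair of runs lay on chromosome 5, in the protocadherin beta cluster and around NAIP. Most of their members belong to families of similar copies (TAF7 and BDP1 do not), and how the deposited counts treat reads shared between copies is not given in the sources used here.

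Set against the other compounds, at the doses used, which differ, the samples of 2-77 lay nearest to ENZA by number of calls: 5.54% of genes differed, against 22.4% for P-16, 42.0% for BD98 and 70.2% for ACBI. Each of these contrasts uses the same 2-77 samples and is also a contrast of doses. The number called against ENZA, 855, was 499 without 2-77 replicate 1, 560.0 without 2-77 replicate 2 and 555 without ENZA replicate 1. In the direct contrast 19 of 24 glycolysis enzymes and 19 of 27 hypoxia-inducible factor targets were higher in 2-77 and 0 of either list were lower, against 2.94% of all genes higher and 2.60% lower. The counts ran from 17 to 19 for each list over DESeq2, the replicate block and the removal of each 2-77 or ENZA sample. Of 28 prostate surface antigens and secreted marks, 11 were lower in 2-77 than in ENZA and 1 was higher. The alternatives were not run for that count. Against P-16, 2 glycolysis enzymes were higher in 2-77 and 4 lower, and 6 hypoxia-inducible factor targets were higher and 5 lower, against 10.6% and 11.8% of all genes. Without 2-77 replicate 3, 3 of those targets were lower. PLOD2 had a mean of 19.1 CPM in ENZA and 45.3 CPM in P-16, and its difference between 2-77 and P-16 was not called (log2 0.14 ± 0.0751, adjusted p = 0.207). For VEGFA the mean was 321 CPM in ENZA, below DMSO, and 565 CPM in P-16. Against BD98, 20 glycolysis enzymes were higher in 2-77 and 0 lower (20.7% and 21.3% of all genes), and against ACBI 22 were higher and 2 lower (36.8% and 33.4%).

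TXNIP was high after 4 of the 5 compounds. Its mean was 390.0 CPM in ENZA, 355 CPM in ACBI and 448 CPM in BD98, but 132 CPM in P-16, where 2-77 was higher by 1.602 ± 0.0359 on the log2 scale (adjusted p = 3.05e-24). The aminoacyl-tRNA synthetases were lower in 2-77 than in P-16 for 14 of 21 and higher for 1, against 11.8% and 10.6% of all genes. Against BD98, 13 were higher in 2-77 and 2 lower, against 20.7% and 21.3% of all genes. The count lower than in BD98 was 1 without 2-77 replicate 1 or 3. Against ACBI, 19 were higher and 0 lower, against 36.8% and 33.4% of all genes. Against ENZA 2 synthetases were lower and 0 higher, against 2.60% and 2.94% of all genes. The count called lower was 0 without 2-77 replicate 1 or 2 or ENZA replicate 1 or 2. It was 1 without 2-77 replicate 3 or ENZA replicate 3.

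A small set of genes placed 2-77 outside every other sample. For 111 genes, 0.720% of those tested, all 3 samples of 2-77 lay above (59 genes) or below (52) all 15 others and the difference passed the test against DMSO and each compound. SCNN1B reached 9.43 CPM or more in every sample of 2-77 and at most 6.27 CPM elsewhere (P-16). COL5A1 stood at 4.79 to 6.74 CPM after 2-77 against at most 4.17 CPM (ENZA), with an adjusted p of 0.0468 in that contrast. VIM stood at 26.5 to 29.5 CPM against at most 21.2 CPM (P-16). These 3 genes were thus higher than in any other sample by less than 1 log2 unit. On the lower side, GRIN3A stood at 1.49 to 2.15 CPM after 2-77 against at least 2.49 CPM (ENZA). KCNN2 stood at 60.2 to 65.6 CPM against at least 89.5 CPM (ENZA), and INPP4B at 3.89 to 5.57 CPM against at least 6.21 CPM (ENZA). MAOA, monoamine oxidase A, stood at 306 CPM in each sample of 2-77 and had means of 388 CPM in ENZA, 399 CPM in P-16 and 944 CPM in ACBI. MDK, a heparin-binding growth factor, stood at 39.6 to 42.8 CPM and had means of 28.9 CPM in ENZA and 29.8 CPM in P-16.

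**Figure D5:**
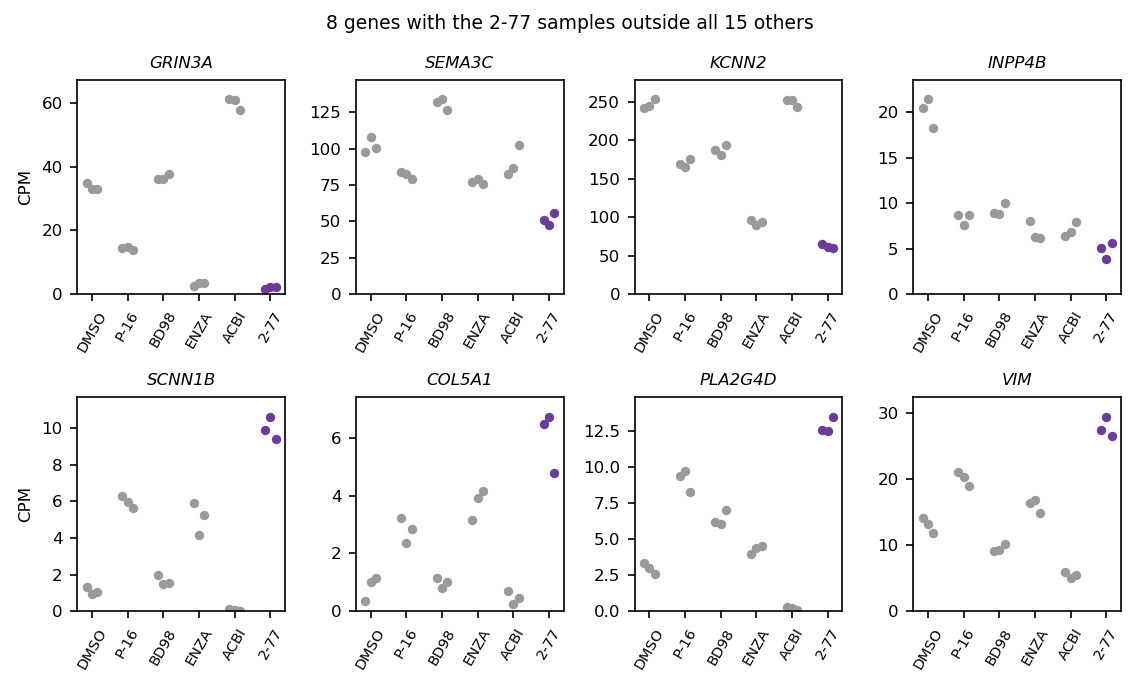
Level in CPM (y axis, from 0) of 8 genes in each of the 18 samples, 3 points for each of DMSO, P-16, BD98, ENZA, ACBI and 2-77 (purple). The purple points lie below all others for GRIN3A, SEMA3C, KCNN2 and INPP4B and above all others for SCNN1B, COL5A1, PLA2G4D and VIM, and the nearest other group is ENZA or P-16 in each of the 8 panels.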

How the data were processed

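The authors deposited 1 table of estimated counts per gene for 18 samples. Per the submitters' processing notes, STAR, Partek and DESeq2 were used with hg38; versions, the annotation, the counting program and its strand setting are not given in the sources used here. Libraries were made with a stranded mRNA kit, per the labels' protocols. All per-sample columns were used (0 unused). After rounding of the deposited estimated counts to whole numbers, groups were compared by edgeR 4.0.16 under R 4.3.3 (quasi-likelihood F test, two-sided, robust, TMM factors, genes kept by filterByExpr), with all 18 samples in 1 fit on 6 groups and Benjamini-Hochberg adjustment over the 15422 genes kept. A gene was called at an adjusted p under 0.05, and changes above 1.5-fold were called with glmTreat. Levels are CPM on TMM-scaled totals, and SE is of the log2 fold change. The common biological coefficient of variation was 0.0573 with 12 residual degrees of freedom. In the 6 libraries 3 counts correspond to 0.0980 to 0.174 CPM, and totals of 17210743 to 30626332 counts set the precision. The fit was run on simulated data in which few genes changed and every gene had the same spread. That run cannot show how many calls are false in data as widely changed as these.

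The compared samples and the 52 gene lists were chosen with earlier results of these data known. Genes named passed the test, reached 4 CPM or more in 1 of the groups and had no overlap of the 3 and 3 samples. Among these were taken the 25 largest rises and falls, the 10 largest changes in CPM in each direction, up to 6 members of smallest p per list, the 10 per direction farthest outside all other samples, and PBAF, BAF and panel genes whatever their test. The labels give replicate numbers; deviations of same-numbered samples of 2-77 and DMSO correlated at 0.0352, -0.113 and -0.0952, so the numbers were not taken to pair samples. Alternatives were DESeq2 1.42.0, other scaling factors, other filters, other minimum folds, fits on fewer groups, a replicate block and leaving out each sample. Those for the contrasts between compounds that leave out a sample, and all for their list counts, were chosen after seeing the data. Promoter sequences are RefSeq's (GRCh38.p14), searched over 250 bases before the start. Some genes are not reported here.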

Additional observations from a re-analysis of the deposited data

How the results depend on the processing

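The 6280 genes called between 2-77 and DMSO became 5978 with DESeq2, 6256 and 5958 with RLE factors and library totals, 6115 without a filter on low counts, 5976 with a stricter filter, 6309 in a fit on the 6 samples alone and 6716 without the ACBI samples. With library totals 3211 were higher and 2747 lower. With a replicate block 6107 were called (3076 higher, 3031 lower), of which 6067 were among the 6280, and the contrasts with ENZA, ACBI, BD98 and P-16 gave 758, 10758, 6318 and 3250 genes. Leaving out 1 sample of 2-77 or DMSO gave 5370 to 5855. The 632 genes changed by more than 1.5-fold became 2146 at a minimum fold of 1.2 and 209 at 2, by the construction of that test. The 855 genes called against ENZA ranged from 499 to 947 with 1 sample of 2-77 or ENZA left out; the cause was not tested. Of the 111 genes outside all other samples, 102 were also found with DESeq2 and 88 with library totals. Of 98 genes given with their own values, those called kept their direction under the alternatives run, whereas LDHB, SCNN1A and EPCAM, not called and near 0, changed sign under some. Counting depth limits genes near 1 CPM.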
